A study of Mus musculus with 2 samples.

Results

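The Hox genes were described in mouse embryonic stem cells (ESCs) labelled HDAC6 overexpression (HDAC6 OE) and in ESCs labelled WT. The members are the genes of the Hoxa, Hoxb, Hoxc and Hoxd clusters that have a named probe on the array, taken by gene name and not by their values, and there are 38 of them among 20284 genes with a named probe. Of these, 33 Hox genes passed the filter on dim signals and were tested, among 16069 tested genes. Both groups were B6C3F1 ESCs at passage 26, grown with LIF on a layer of mitomycin C-treated mouse embryonic fibroblasts, the feeder cells. HDAC6 is a largely cytoplasmic deacetylase that acts on tubulin. Total RNA labelled HDAC6 OE carried the dye Cy5 and total RNA labelled WT carried Cy3 on each of 2 two-colour arrays, which the labels call biological replicates. The dyes were not swapped, so a dye effect of a probe cannot be told apart from a difference between the groups. The promoter or vector of the overexpression and the number of clones are not given in the sources used here. Whether the 2 arrays hold RNA of separate cultures is not settled by the labels, and p-values then measure only the spread between these 2 arrays, which may be technical.

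Hox genes encode homeodomain transcription factors that give cells of the embryo their position along the head-to-tail axis. They lie in clusters in which the order of the genes matches the order of their expression domains, with low paralogue numbers acting in the hindbrain and neck and high ones in the lumbar, sacral and tail regions and in the distal limb. Genes with the same number in different clusters are paralogues, copies of one ancestral gene. In undifferentiated ESCs the clusters are known as Polycomb-bound, weakly expressed chromatin, while fibroblasts of the body keep expressing the Hox genes of the place they came from.

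The signals were processed spot intensities, background-subtracted and dye-normalized by the scanner software, and a log2 ratio is that of HDAC6 OE over WT within an array. The pluripotency genes were bright in both channels: Pou5f1 read 28900 and 32500 in RNA labelled HDAC6 OE, against 26900 and 25800 in RNA labelled WT, and the summed signal of 10 such markers was 174040 and 188090 in HDAC6 OE, against 186260 and 198910 in WT. Hdac6 itself read 18300 and 17300 in RNA labelled HDAC6 OE, against 16400 and 17800 in RNA labelled WT, a mean log2 ratio of 0.06 ± 0.14 (SD, n = 2; limma adjusted p = 0.64). Its groups overlapped, so the Hdac6 probe did not bear out the label, and whether that probe can read the introduced gene is not known. Every direction given here therefore rests on the labels alone. The groups differed widely: 3413 of the 16069 tested genes were higher in HDAC6 OE (21.2%) and 4807 were lower (29.9%) at an adjusted p under 0.05, so 51.2% of all genes passed the test. The median log2 ratio over all tested genes was -0.06.

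For the members with the highest ratio in the Hoxa and Hoxd clusters and for the lower members with an entry, the sequence around the gene start is shown, because CpG-rich starts are those that Polycomb binds in ESCs and the genes can be compared there letter by letter. Each is the RefSeq window of assembly GRCm38.p6 that ends shortly after the annotated start, written 5′ to 3′ on the gene's strand, with every CG pair in capitals. Hoxa11 (chr6:52245761-52246060, minus strand) and Hoxd10 (chr2:74691641-74691940, plus strand) were higher in HDAC6 OE. Hoxa2 (chr6:52164782-52165081, minus strand) and Hoxd1 (chr2:74762730-74763029, plus strand) were lower.
Hoxa11: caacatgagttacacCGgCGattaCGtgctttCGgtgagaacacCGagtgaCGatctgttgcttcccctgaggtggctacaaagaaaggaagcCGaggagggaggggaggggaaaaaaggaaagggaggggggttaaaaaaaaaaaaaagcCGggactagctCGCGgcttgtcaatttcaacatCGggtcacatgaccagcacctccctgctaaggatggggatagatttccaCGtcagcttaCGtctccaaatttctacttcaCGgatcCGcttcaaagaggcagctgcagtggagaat
Hoxd10: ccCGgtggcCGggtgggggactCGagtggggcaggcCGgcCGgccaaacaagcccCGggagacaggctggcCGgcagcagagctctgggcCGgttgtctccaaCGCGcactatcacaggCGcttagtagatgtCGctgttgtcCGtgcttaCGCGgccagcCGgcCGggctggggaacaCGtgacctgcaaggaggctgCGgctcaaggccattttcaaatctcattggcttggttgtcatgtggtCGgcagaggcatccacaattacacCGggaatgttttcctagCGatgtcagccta
Hoxa2: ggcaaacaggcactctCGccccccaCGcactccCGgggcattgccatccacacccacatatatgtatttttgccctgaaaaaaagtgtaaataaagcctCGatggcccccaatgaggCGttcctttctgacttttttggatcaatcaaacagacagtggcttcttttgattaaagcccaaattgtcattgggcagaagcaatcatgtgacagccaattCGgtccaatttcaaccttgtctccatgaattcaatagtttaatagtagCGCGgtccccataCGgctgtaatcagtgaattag
Hoxd1: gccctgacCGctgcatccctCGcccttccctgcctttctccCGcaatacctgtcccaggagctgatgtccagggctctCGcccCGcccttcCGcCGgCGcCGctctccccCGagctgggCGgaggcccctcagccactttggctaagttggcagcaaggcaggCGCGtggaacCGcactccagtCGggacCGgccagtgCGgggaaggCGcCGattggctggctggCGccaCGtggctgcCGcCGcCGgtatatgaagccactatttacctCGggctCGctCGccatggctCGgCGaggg
These windows held 15 CG pairs for Hoxa11, 22 for Hoxd10, 9 for Hoxa2 and 29 for Hoxd1, so the pair of higher genes and the pair of lower genes overlapped in CG content. Over the 24 windows of 22 Hox genes in that table, which is not complete, the median was 14.5 CG pairs, against 7.0 over all 32851 windows. The observed over expected CG ratio was 0.63 over the Hox windows, against 0.38 over all. Letter matches to motifs were searched on both strands. TGATNNAT, the form of the PBX-HOX composite site, lay in the windows of 4 Hox genes (Hoxa2, Hoxb1, Hoxb8 and Hoxd11) and in 8.85% of all windows. TTTATG, a CDX-type site, lay in those of 5 (Hoxa7, Hoxb8, Hoxd3, Hoxd4 and Hoxd11), against 11.85% of all. TATAAA lay in 4 (Hoxa10, Hoxb8, Hoxd4 and Hoxd13), against 13.62%. Matches to TATAAA and TTTATG cannot share letters on either strand, whereas TTTATG and TGATNNAT can. A strict form of the DR5 retinoic acid response element lay in 0 Hox windows, against 0.01% of all. The matches describe letters only.

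Of the 33 tested Hox genes, 29 were higher in HDAC6 OE (87.9%, against 21.2% of all tested genes), 3 were lower (9.09%, against 29.9%) and 1, Hoxb5, did not pass the test. The median log2 ratio over the 33 was 0.95, with 0.73 on replicate 1 and 1.03 on replicate 2. The ratio was above 1 on both arrays for 29 of 33, against 37.2% of all tested genes. At least 2-fold on both arrays, 10 Hox genes were higher (Hoxa9, Hoxa10, Hoxa11, Hoxb6, Hoxc6, Hoxc9, Hoxc13, Hoxd10, Hoxd11 and Hoxd12; 3.03% of all tested genes) and 1, Hoxd1, was lower (4.39%). One of the 33, Hoxd11, passed the filter only through its HDAC6 OE channel. Among the 32 well above background in both channels 28 were higher, against 3392 of all 15421 genes under that filter. These are counts over related genes read on the same 2 arrays, and fewer cells of a type and less RNA per cell cannot be told apart in such bulk RNA.

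**Figure D1:**
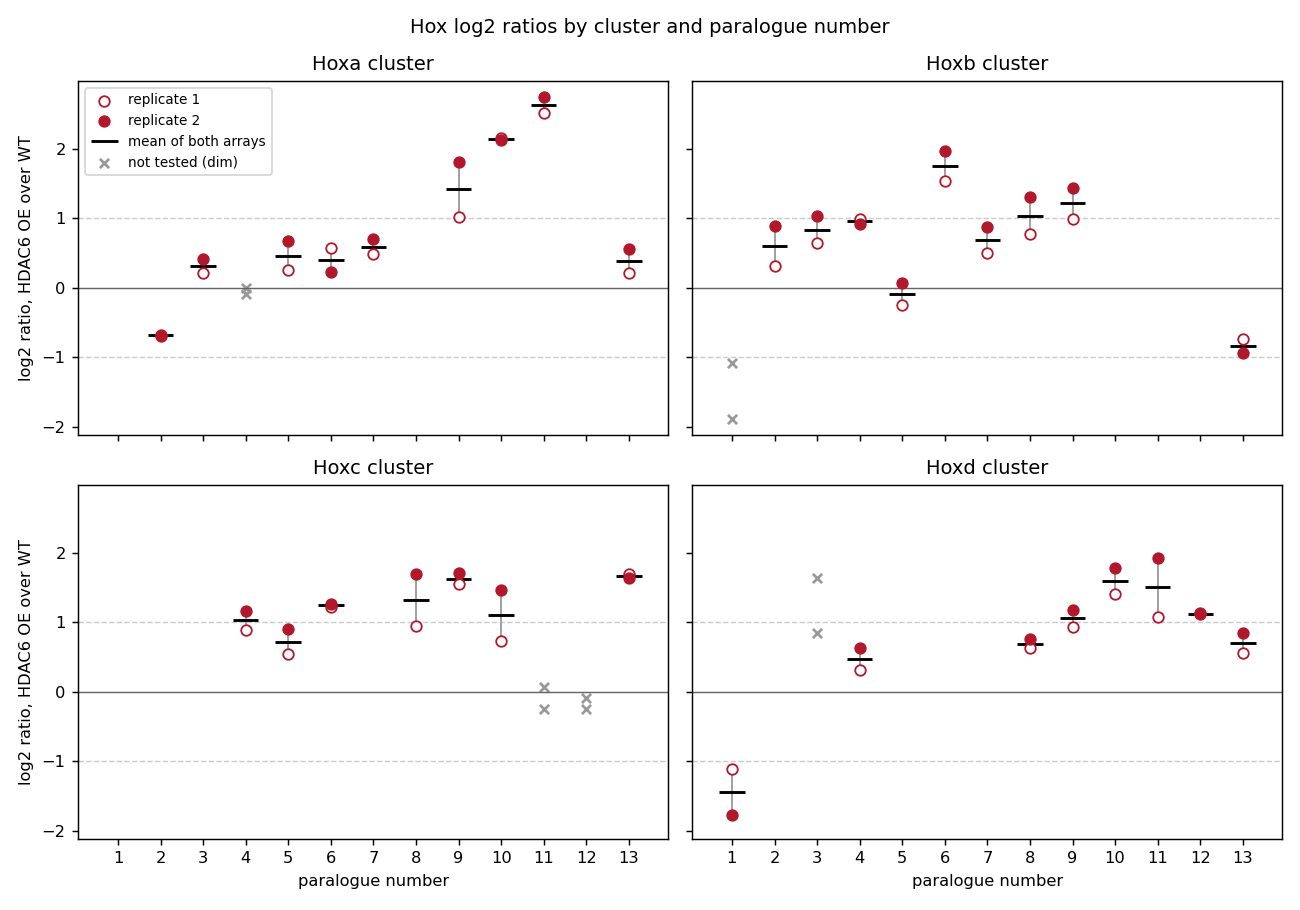
Log2 ratio of HDAC6 OE over WT (vertical axis) by paralogue number (horizontal axis) in each Hox cluster, with open points for replicate 1, filled points for replicate 2, a bar at their mean and grey crosses for the 5 genes too dim to test. Most points lie above 0, the highest being Hoxa11 at a mean of 2.63, and Hoxa2, Hoxb13 and Hoxd1 lie below it.

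In the Hoxa cluster on chromosome 6, 8 of 9 tested genes were higher and 1 was lower, and the ratios differed most within this cluster, between a mean log2 ratio of -0.69 and one of 2.63. Hoxa11, which patterns the forearm, kidney and uterus, read 523 and 682 in HDAC6 OE, against 91.5 and 102 in WT. The groups were far apart on both arrays, at a log2 ratio of 2.63 ± 0.16 (SD, n = 2; adjusted p = 7.8e-05), or 6.19-fold, which ranked 80 among the 16069 genes. This probe is printed in 10 copies, and the copies kept gave log2 ratios of 2.25 to 2.63 on replicate 1 and of 2.53 to 2.97 on replicate 2. Hoxa10, which acts in the lumbar axis and the uterus, read 256 and 356 in HDAC6 OE, against 57.2 and 81.8 in WT, a log2 ratio of 2.14 ± 0.03 (adjusted p = 9.5e-05) that hardly differed between arrays. Hoxa9, known for its role in blood progenitors, read 156 and 251 in HDAC6 OE, against 77.0 and 71.4 in WT, a log2 ratio of 1.42 ± 0.56 (adjusted p = 0.0025), with most of it from replicate 2.

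The remaining Hoxa genes moved less. Hoxa7, a thoracic gene, read 2400 and 3230 in HDAC6 OE, against 1720 and 1990 in WT, a log2 ratio of 0.59 (adjusted p = 0.0057). Hoxa5, which acts in the neck and lung, had a log2 ratio of 0.46 (adjusted p = 0.028), Hoxa6 one of 0.40 (adjusted p = 0.032), Hoxa13, a digit and genital gene, one of 0.39 (adjusted p = 0.037) and Hoxa3, needed for thymus and parathyroid, one of 0.31 (adjusted p = 0.045). On replicates 1 and 2 the log2 ratios were 0.25 and 0.67 for Hoxa5, 0.57 and 0.23 for Hoxa6, 0.21 and 0.56 for Hoxa13, and 0.21 and 0.41 for Hoxa3, so their sizes depended on the array. These 4 calls lay close to the threshold and each was lost under at least 1 other processing. With each array centred on its median, the adjusted p was 0.061 for Hoxa3, 0.051 for Hoxa5 and 0.061 for Hoxa13. With normexp background correction and loess in place of the processed signals, the log2 ratio was 0.10 for Hoxa6 (adjusted p = 0.42) and 0.20 for Hoxa13 (adjusted p = 0.092). Under that processing Hoxa11 had 1.95 in place of 2.63, Hoxa10 had 1.36 and Hoxa9 had 0.87, all still past the test. Hoxa2, the hindbrain and second-arch gene at the low-numbered end, went the other way: it read 78.3 and 82.4 in HDAC6 OE, against 127 and 132 in WT. Its groups did not overlap, and its log2 ratio was -0.69 ± 0.01 (adjusted p = 0.0023). Hoxa4 was well above background in neither channel (25.8 and 17.3 in HDAC6 OE, against 27.4 and 17.4 in WT) and was not tested.

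In the Hoxb cluster on chromosome 11, 7 of 9 tested genes were higher, Hoxb13 was lower and Hoxb5 did not pass the test. Hoxb6, a gene of the lateral mesoderm and trunk, read 351 and 594 in HDAC6 OE, against 120 and 151 in WT. Every HDAC6 OE signal stood above every WT signal, at a log2 ratio of 1.76 ± 0.30 (SD, n = 2; adjusted p = 0.00044), or 3.38-fold. Hoxb9, a gene of the thoracic axis, read 2230 and 3320 in HDAC6 OE, against 1120 and 1230 in WT, a log2 ratio of 1.21 ± 0.31 (adjusted p = 0.0012). Hoxb8, which is active in blood and microglial progenitors, followed with 1.04 (adjusted p = 0.0029) and Hoxb4, known for expanding blood stem cells, with 0.95 (adjusted p = 0.00092). Hoxb3 had 0.84 (adjusted p = 0.0033), but its second probe gave 0.29. Hoxb7 had 0.69 (adjusted p = 0.0063). Hoxb2, a hindbrain gene, had 0.32 on replicate 1 and 0.90 on replicate 2, with a mean of 0.61 (adjusted p = 0.021), so its size depended on the array.

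Hoxb5, Hoxb13 and Hoxb1 were not among the higher genes of the cluster. Hoxb5, a gene of the enteric neural crest, read 187 and 252 in HDAC6 OE, against 221 and 239 in WT. The groups overlapped, and the arrays pointed in opposite directions, with log2 ratios of -0.24 and 0.07 (adjusted p = 0.55). Hoxb13, which acts in the prostate and at the tail end and lies apart from the rest of the cluster, read 254 and 248 in HDAC6 OE, against 424 and 478 in WT. Its groups did not overlap, at a log2 ratio of -0.84 ± 0.15 (adjusted p = 0.0017), so the WT signal was 1.79-fold the HDAC6 OE signal. Hoxb1, the hindbrain gene at the other end, was well above background in neither channel on either array, with 8.78 and 8.98 in HDAC6 OE, against 32.5 and 19.1 in WT, so no fold is given.

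All 7 tested genes of the Hoxc cluster on chromosome 15 were higher. Its median log2 ratio, 1.24, was the highest of the clusters, with 0.84 for Hoxb. This order takes no account of the chromosomes, whose medians without Hox genes were -0.02 for chromosome 15 and -0.52 for chromosome 11. Hoxc13, known from hair and nail, read 689 and 835 in HDAC6 OE, against 213 and 268 in WT. The groups lay well apart, at a log2 ratio of 1.67 ± 0.04 (SD, n = 2; adjusted p = 0.00019), or 3.17-fold. Hoxc9, which sets the thoracic motor neurons, read 1700 and 2420 in HDAC6 OE, against 579 and 743 in WT, a log2 ratio of 1.63 ± 0.11 (adjusted p = 0.00024). Hoxc8, of the brachial and thoracic region, had 0.94 on replicate 1 and 1.70 on replicate 2 (adjusted p = 0.0028), and Hoxc10, of the lumbar region, 0.73 and 1.46 (adjusted p = 0.0047), so these 2 depended more on the array. Hoxc6 had 1.24 ± 0.04 (adjusted p = 0.00044), Hoxc4 had 1.03 (adjusted p = 0.0011) and Hoxc5 had 0.72 (adjusted p = 0.0048). Hoxc11 (19.8 and 9.73 in HDAC6 OE, against 18.9 and 11.6 in WT) and Hoxc12 (12.3 and 9.16 in HDAC6 OE, against 14.7 and 9.78 in WT) were well above background in neither channel. The 2 dim genes lie between Hoxc10 and Hoxc13, so the gene that was higher at the posterior end had dim neighbours within the cluster.

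In the Hoxd cluster on chromosome 2, 7 of 8 tested genes were higher and Hoxd1 was lower. Hoxd10, a limb and lumbar motor neuron gene, read 203 and 304 in HDAC6 OE, against 76.7 and 88.4 in WT. The groups did not overlap, at a log2 ratio of 1.6 ± 0.27 (SD, n = 2; adjusted p = 0.00048), or 3.02-fold. Hoxd11, which with Hoxa11 patterns the forearm, read 89.9 and 139 in HDAC6 OE, against 42.6 and 36.6 in WT, where it was not well above background on either array. It is therefore given as at least 2.61-fold higher (adjusted p = 0.0025, from a test that it entered only through the channel in which it was high). The bound sets the mean HDAC6 OE signal against the higher, per array, of its own WT signal and the lowest WT signal well above background. For the bound, mean intensities were first matched between the arrays by quantiles (Aquantile), so it does not follow exactly from the printed signals. Hoxd12, a digit gene, read 112 and 193 in HDAC6 OE, against 51.7 and 88.2 in WT. Its ratio was nearly the same on both arrays, 1.12 (adjusted p = 0.00056), although both of its signals were higher on replicate 2. Hoxd9 had 1.06 (adjusted p = 0.00096), Hoxd13, the other digit gene, 0.70 (adjusted p = 0.0041), Hoxd8 0.69 (adjusted p = 0.0025) and Hoxd4, a neck gene, 0.47 (adjusted p = 0.018), with 0.31 and 0.63 on replicates 1 and 2.

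Hoxd1, known from pain-sensing neurons of the mouse, had the lowest ratio of the 33 tested Hox genes. It read 77.9 and 67.8 in HDAC6 OE, against 169 and 231 in WT, with no overlap, at a log2 ratio of -1.45 ± 0.46 (adjusted p = 0.0015), so the WT signal was 2.72-fold the HDAC6 OE signal. Hoxd3 was not tested, since it was well above background in HDAC6 OE on replicate 2 only (32.0 and 66.8 in HDAC6 OE, against 17.8 and 21.5 in WT). With normexp and loess, the log2 ratios of several genes of the cluster were nearer to 0: 0.62 for Hoxd12, 0.31 for Hoxd4 and -0.78 for Hoxd1, all still past the test.

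**Figure D2:**
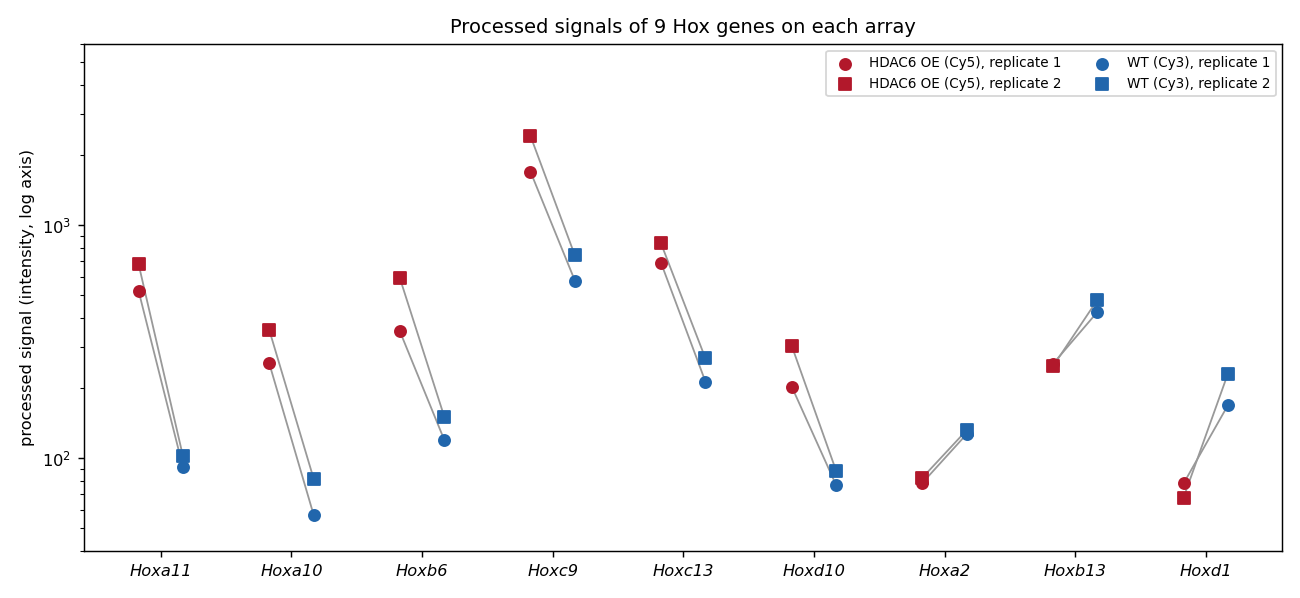
Processed signal on a log axis of 9 Hox genes, with the HDAC6 OE channel (red) left of the WT channel (blue) and lines joining the channels of an array (circles replicate 1, squares replicate 2). The first 6 genes stand higher in HDAC6 OE on both arrays (Hoxa11 at 523 and 682, against 91.5 and 102 in WT), and Hoxa2, Hoxb13 and Hoxd1 stand lower on both (Hoxd1 at 77.9 and 67.8, against 169 and 231 in WT). Levels of different genes are not comparable, since each has its own probe.

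By paralogue number, the ratios were larger in the posterior class, though not in every cluster and not up to the last group, 13. The 5 tested genes of paralogue groups 1 to 3 had a median log2 ratio of 0.31, with 3 higher and 2 lower. The 14 of groups 4 to 8 had a median of 0.71, with 13 higher and 0 lower. The 14 of groups 9 to 13 had a median of 1.32, with 13 higher and 1 lower, and they supplied 8 of the 10 genes at least 2-fold higher on both arrays. With normexp and loess the posterior median was 0.85, a move of over 1.5 times, while the anterior and central medians were 0.28 and 0.58, so the order of the 3 medians was the same. The posterior counts and median of 1.32 include Hoxd11, which passed the filter only through its HDAC6 OE channel. With the filter in both channels, the posterior median was 1.21 over 13 genes. The difference between the classes was not tested.

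Within the posterior class, the median was 1.6 for group 10 and 1.32 for group 9, where all tested members were higher. Group 11 held Hoxa11 at 2.63 and Hoxd11, for which only the bound above is given. Group 13, with a median of 0.54, was split. Hoxc13 had 1.67, Hoxd13 0.70, Hoxa13 0.39 and Hoxb13 -0.84, so paralogues of the same number did not move alike. As a description across genes, the log2 ratio correlated with paralogue number at Pearson's r = 0.44 and Spearman's rho = 0.47 over all 33 genes. By cluster it was r = 0.67 and rho = 0.63 over 9 Hoxa genes, r = -0.40 and rho = 0.08 over 9 Hoxb genes, r = 0.74 and rho = 0.75 over 7 Hoxc genes, and r = 0.80 and rho = 0.67 over 8 Hoxd genes. On replicates 1 and 2 alone, rho was 0.63 and 0.68 for Hoxa, 0.02 and -0.02 for Hoxb, 0.54 and 0.68 for Hoxc, and 0.57 and 0.62 for Hoxd. The values over all 33 genes and over the Hoxd genes include Hoxd11 at its computed ratio, although only a bound is given for it. Neighbouring genes share these 2 arrays, and some share transcribed sequence, so the points are not independent. RefSeq intervals overlap for 8 pairs that involve 11 Hox genes (Hoxa3 with Hoxa4, Hoxa5 and Hoxa6, Hoxb3 with Hoxb4, Hoxd10 with Hoxd11, Hoxd3 with Hoxd4, and Hoxa11 and Hoxd3 each with an antisense RNA), and where the probes lie relative to the overlaps is not known.

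Noncoding RNAs inside the clusters were read by probes of their own. Hoxa11os, the antisense RNA that overlaps Hoxa11, read 1150 and 1400 in HDAC6 OE, against 405 and 503 in WT, a log2 ratio of 1.49 ± 0.02 (SD, n = 2; adjusted p = 0.00026), so both it and Hoxa11 were higher. Gm53, a noncoding gene between Hoxb13 and Hoxb9, read 507 and 733 in HDAC6 OE, against 124 and 170 in WT, a log2 ratio of 2.07 ± 0.06 (adjusted p = 0.00011). It thus lay between a lower and a higher gene and had a larger ratio than every tested Hoxb gene. Hoxd3os1 was well above background in neither channel (8.43 and 8.95 in HDAC6 OE, against 8.37 and 9.48 in WT).

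Genes outside the clusters were counted in the same way. Among the 5 nearest tested genes on each side of each cluster, 6 of 40 were higher (15%), 12 were lower (30%) and 22 did not pass the test, with a median log2 ratio of -0.07, near that of all genes. Of the 8 nearest, Ttll6 beside Hoxb13 had 0.97 (adjusted p = 0.00085). Evx1 beside Hoxa13 had 0.26 on replicate 1 and 1.04 on replicate 2, with a mean of 0.65 (adjusted p = 0.033). Calcoco1 beside the Hoxc cluster had 0.24 and 0.64, with a mean of 0.44 (adjusted p = 0.030). Skap1 beside the Hoxb cluster had -0.67 and -0.33, with a mean of -0.50 (adjusted p = 0.015), so these 3 depended on the array. The other 4 (Skap2, Smug1, Lnpk and Mtx2) did not pass the test. The lowest ratios among the 40 were those of Nfe2 at -1.33, Gip at -1.17 and Nfe2l3 at -1.11. The neighbours of Hoxb had a median of -0.51 and 7 of 10 were lower. Chromosome 11 as a whole had a median of -0.52 without its Hox genes, and 896 of its 1331 tested genes were lower (67.3%), so the Hoxb genes that were higher stood on a chromosome that was mostly lower. The lower call of Hoxb13 was shared with most tested genes of that chromosome. The medians of chromosomes 6, 15 and 2 without Hox genes were -0.02, -0.02 and -0.07.

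**Figure D3:**
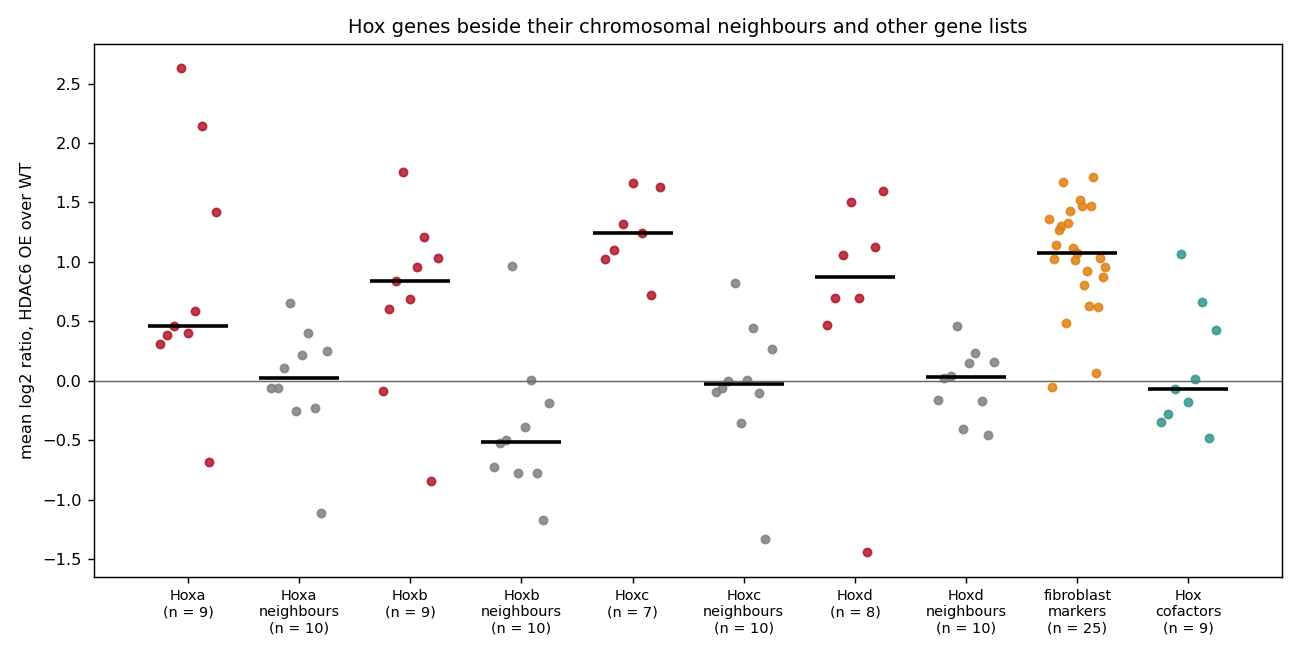
Mean log2 ratio of HDAC6 OE over WT (vertical axis) of each tested gene, with a bar at the median, for the Hox clusters (red), the 10 nearest tested genes of each cluster (grey), fibroblast markers (orange) and Hox cofactors (green). The cluster medians run between 0.46 and 1.24 and those of the neighbours between -0.51 and 0.03, while the fibroblast markers have a median of 1.08.

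Fibroblast markers, which the feeder layer can carry into ESC RNA, were higher together with the Hox genes. Of 25 such markers 22 were higher (88%, against 21.2% of all tested genes) and 0 were lower. Tagln, Twist1 and Mmp2 did not pass the test. The 25 markers had a median log2 ratio of 1.08. Their summed signal was 376440 and 485900 in HDAC6 OE, against 211680 and 192070 in WT, a ratio of 1.78 on replicate 1 and 2.53 on replicate 2, and none of them was at background. The collagen gene Col1a2 read 36200 and 42600 in HDAC6 OE, against 13800 and 10400 in WT, with a log2 ratio of 1.71, and S100a4 and Lum, a matrix proteoglycan, had 1.68 and 1.52. The Hox genes and these markers also leaned toward the same array: 27 of 33 Hox genes (81.8%) and 24 of 25 fibroblast markers (96.0%) had the higher ratio on replicate 2, against 7965 of all 16069 genes (49.6%). The median gain of replicate 2 over replicate 1 was 0.29 for the Hox genes, 0.48 for the fibroblast markers and -0.003 for all genes. The part of feeder RNA in the Hox ratios was not tested. Over the 33 Hox genes the 2 arrays correlated at r = 0.94 and rho = 0.92, against r = 0.92 and rho = 0.90 over all tested genes.

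Markers of other cell types were counted in the same way, beside 21.2% of all tested genes higher and 29.9% lower. Of 16 primitive endoderm markers 15 were higher and 1, Afp, was lower, with a median log2 ratio of 3.05, and their summed signal was 212260 and 221160 in HDAC6 OE, against 39128 and 45097 in WT. Sparc is counted both here and among the fibroblast markers, so that list is not particular to fibroblasts. Of 11 primitive streak and posterior mesoderm markers 4 were higher, 4 were lower and 3 did not pass the test, and 10 of the 11 had the higher ratio on replicate 2. Cdx1, Cdx2 and Evx1, among the higher, and Cdx4, among the lower, are also counted in other lists of this report, so these lists are not separate. Of 7 neural markers 0 were higher, 5 were lower and 2 did not pass the test. The pluripotency markers were split, with 4 higher, 4 lower and 2 not past the test. The part of these cell types in the Hox ratios was not tested.

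Genes that act with or upstream of Hox genes were called in both directions. Of 9 Hox cofactors of the PBX, MEIS and PREP families, which bind DNA together with Hox proteins, 3 were higher, 3 were lower and 3 did not pass the test. Meis3 had the largest log2 ratio, 1.07 (adjusted p = 0.0011), followed by Meis2 with 0.66 (adjusted p = 0.0034), while Pknox2 had -0.48 (adjusted p = 0.012). Of 20 tested genes of the Cdx family and of retinoic acid signalling, both of which turn on Hox genes in the embryo, 4 were higher, 12 were lower and 4 did not pass the test, with a median of -0.36. Cyp26a1, which breaks retinoic acid down, had a log2 ratio of 1.56 ± 0.27 (adjusted p = 0.00053). The list thus also holds genes that break retinoic acid down, so its counts are not those of activators alone. Cdx1, a caudal homeobox activator of Hox genes, read 1620 and 4190 in HDAC6 OE, against 871 and 912 in WT, so its log2 ratio was 0.90 on replicate 1 and 2.20 on replicate 2 (adjusted p = 0.0077). Of its family, Cdx2 was also higher, with 1.22 (adjusted p = 0.0017). Cdx4 was lower at dim signals (31.2 and 36.4 in HDAC6 OE, against 59.8 and 66.6 in WT). Rxrg, a retinoid X receptor, had -1.28 (adjusted p = 0.00070).

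Of 27 tested Polycomb genes, which keep Hox clusters silent, 4 were higher, 6 were lower and 17 did not pass the test, with a median log2 ratio of 0.01. Suz12, a core subunit of the H3K27 methyltransferase complex, had -1.05 (adjusted p = 0.00080), Ezh1, one of its catalytic subunits, -1.0 (adjusted p = 0.00080) and Bmi1, a subunit of the H2A ubiquitin ligase complex, 0.94 (adjusted p = 0.0010). The other core subunits Eed and Ezh2 did not pass the test, with 0.12 and -0.14. These calls take no account of the chromosome of each gene. On chromosome 11 without its Hox genes, 67.3% of the tested genes were lower. Of 13 tested Trithorax-group genes and H3K27 demethylases, which oppose Polycomb, 3 were higher, 3 were lower and 7 did not pass the test. Ash2l, a subunit of the H3K4 methyltransferase complexes, had -0.98 (adjusted p = 0.00080), Ash1l had 0.60 (adjusted p = 0.0038) and Rbbp5 had 0.37 (adjusted p = 0.022). In a list of other homeobox genes, 5 were tested. Evx1 was higher, En2 with -0.82 (adjusted p = 0.0013) and Gbx1 with -0.49 (adjusted p = 0.0078) were lower, and 2 did not pass the test. So the share of higher calls in these lists, 33.3% of cofactors, 20.0% of the Cdx and retinoic acid genes, 14.8% of the Polycomb genes, 23.1% of the Trithorax-group genes and 20.0% of the other homeobox genes, stood beside 21.2% of all tested genes and 87.9% of the Hox genes. The shares of lower calls were 33.3% of cofactors, 60% of the Cdx and retinoic acid genes, 22.2% of the Polycomb genes, 23.1% of the Trithorax-group genes and 40% of the other homeobox genes, beside 29.9% of all tested genes, so the Cdx and retinoic acid list held more lower than higher calls.

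**Figure D4:**
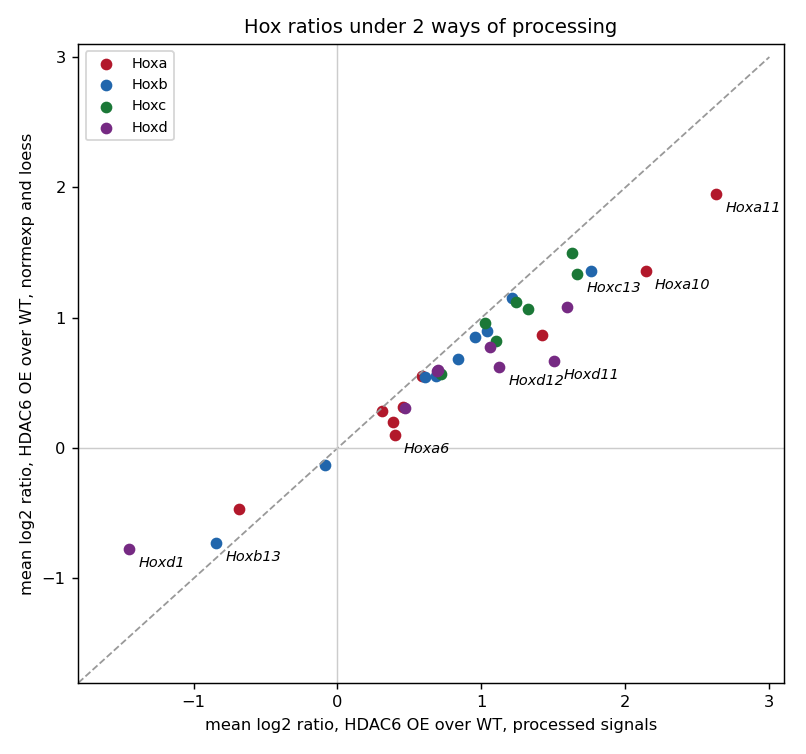
Mean log2 ratio of HDAC6 OE over WT of the 33 tested Hox genes from the processed signals (horizontal axis) against that from raw median signals with normexp and loess (vertical axis), coloured by cluster, with the line of equality dashed. The signs are the same for all 33, and many ratios are nearer to 0 with normexp and loess, such as Hoxa10 with 1.36 in place of 2.14 and Hoxa9 with 0.87 in place of 1.42.

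The size of the ratios depended on the processing. With raw median signals, normexp and loess, which change the signal, the background correction and the normalization together, the Hox median was 0.67, and which of these steps moved it was not tested. The direction of the mean ratio of all 33 tested genes was the same, and 27 were still higher past the test.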

How the data were processed

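RNA labelled HDAC6 OE (Cy5) and WT (Cy3) was compared on 2 Agilent arrays. The authors used Agilent Feature Extraction 11.5.1.1 to read the scans, per the file headers. The deposited files hold raw spot intensity and processed intensity (after background subtraction and dye normalization, per the file headers) and a log10 ratio of the processed signals. The deposited series table holds log2 ratios of WT over HDAC6 OE (slope -1 against the scanner ratios on both arrays), with medians of -0.0074 and 0.062, and whether it was centred further is unknown.

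From the processed intensities, log2 ratios of HDAC6 OE over WT were computed. Control spots (3671 of 62976 per array) and 269 and 313 spots marked as outliers did not enter. Saturated spots numbered 0. Copies of a probe on an array entered as their mean. Of 55681 probes, 26762 were paired with 1 gene symbol through a RefSeq table of GRCm38.p6, 0 with several and 28919 with none. For each gene the brightest probe stood for the gene. It was tested when most spots of that probe were well above background on both arrays in the same channel. Between 68.0% and 68.8% of probes were well above background in a channel. Ratios were tested against 0 with limma 3.58.1 under R 4.3.3 (lmFit and eBayes, intercept only, two-sided, Benjamini-Hochberg over 16069 genes, threshold 0.05), which was tested on simulated data first. The prior had 4.6 degrees of freedom beside 1 residual degree of freedom, and the median standard error was 0.094. The number of arrays limits the precision. Both arrays lay on 1 slide.

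All Hox members are named. Of the other lists (Hox cofactors, Cdx and retinoic acid, Polycomb, Trithorax and H3K27 demethylases, other homeobox genes, cluster neighbours, and markers of fibroblasts, pluripotency, primitive endoderm, primitive streak mesoderm and neural cells), values are given for up to 3 members with the largest ratios past the threshold. Genes adjoining the clusters, noncoding RNAs within them, Cdx2, Cdx4, Eed, Ezh2 and markers shown with their signals were chosen after their values were seen. The members and lists were chosen with earlier results of these data known. Alternatives were normexp (offset 50) with loess, centring, the deposited log10 ratio, the mean over probes, other filters, outlier spots kept, the deposited series table and leaving out each array.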

Additional observations from a re-analysis of the deposited data

How the results depend on the processing

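Of the 32 Hox genes past the test, 0 changed direction under any of the 10 alternatives, and Hoxb5, which was not past it, had 0.07 on replicate 2 alone. Between 26 and 29 were higher past the test and 3 or 4 lower, under the 8 alternatives that allow a test (the fourth being a dim gene tested without the filter). With normexp and loess, the median log2 ratio was 0.67 over all Hox genes, 0.32 over Hoxa, 0.61 over Hoxd and 0.85 over the posterior genes, and the cause was not tested, since the signal, the background correction and the normalization changed together. The Hoxd median was 1.06 with no filter on dim probes, which adds Hoxd3, and 0.70 with the filter in both channels, which drops Hoxd11. Leaving out each array gave medians of 0.73 to 1.03 over all Hox genes, 0.48 to 0.67 over Hoxa, 0.64 to 0.92 over Hoxb, 0.94 to 1.46 over Hoxc, 0.78 to 0.98 over Hoxd, 0.21 to 0.41 over the anterior, 0.60 to 0.89 over the central and 1.05 to 1.55 over the posterior genes. A single array leaves no residual degree of freedom, so it gives no counts. Calls of Hoxa3, Hoxa5, Hoxa6 and Hoxa13 were lost under at least 1 alternative. The deposited series table, chosen as an alternative after the data were seen, gave the same counts. The ratio within an array already pairs the 2 channels, so the test of the ratios against 0 is a paired one. Through dim signals, 5 of 38 Hox genes could not be tested.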

Other observations

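The Hox genes just inside and just outside the background filter were the dim ones. Among the tested genes, Hoxa6 read 67.0 and 76.6 in HDAC6 OE, against 45.2 and 65.3 in WT, close to the lowest signals that were well above background, 41.9 and 42.3 in HDAC6 OE, against 40.7 and 42.5 in WT. Those lowest signals were taken after intensities were matched between the arrays by quantiles, unlike the signals of Hoxa6. Hoxd3 lay just outside, with 32.0 and 66.8 in HDAC6 OE, against 17.8 and 21.5 in WT. The second probe of Hoxa9 gave a log2 ratio of 1.34 beside 1.42 from the first, although its WT signals of 35.3 and 18.3 were not well above background. The second probe of Hoxa13 gave 0.54 beside 0.39, with a WT signal of 33.4 on replicate 2 that was not well above background. With WT signals not well above background, neither second probe gives an exact ratio.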
